A study of Mus musculus with 16 samples.

Results

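The genes described here are the core proteins of the glypicans (Gpc1 to Gpc6) and the syndecans (Sdc1 to Sdc4) of the mouse, taken by gene name. They are 10 of 37583 genes in the count tables, of which 27196 had at least 1 count, and all 10 had enough counts to be tested in each of the 5 comparisons below. Summed syndecan RNA was higher and summed glypican RNA lower in cerebellum than in cortex, Sdc1 and Gpc6 were called higher in wild-type cerebellum and Gpc3, Gpc4 and Gpc5 higher in wild-type cortex, and no member differed by genotype at the adjusted p used.

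Both families carry heparan sulfate, a long sulfated sugar chain that binds growth factors, morphogens and guidance cues at the cell surface. Glypicans are held to the outer membrane leaflet by a glycosylphosphatidylinositol anchor, whereas syndecans cross the membrane and bind scaffold and signaling proteins through a short cytoplasmic tail. In the brain, Gpc4 and Gpc6 are known as astrocyte-derived factors that promote excitatory synapses, and Sdc3 is known as a receptor for pleiotrophin on axons. By sequence, Gpc3 and Gpc5 form one glypican subfamily and Gpc1, Gpc2, Gpc4 and Gpc6 the other.

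RNA was sequenced from the cortex and the cerebellum of 4 wild-type and 4 A391T mice, giving 16 libraries with 4 per group. All mice were C57BL/6J. A391T mice carried a point variant of Slc39a8, a metal ion transporter (named by its human position and numbered A393T in the mouse), and no group received a treatment. The study's methods give 12 weeks as the age of male wild-type mice, and the age and zygosity of the A391T mice are not given in the sources used here. Libraries carry the labels' names, CTX for cortex and CBLM for cerebellum with a mouse number. The methods state for 4 male mice that both regions were taken from each brain, and a number shared by a CTX and a CBLM library was read as 1 mouse in both genotypes.

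Libraries held 20813432 to 30497206 counts on genes (median 24488842). For 8 of the 16 libraries (4 mice, both regions of each), the deposited RPKM table gave the values under the name of a mouse of the other genotype. CTX447 and CTX461 were exchanged, as were CTX448 and CTX462 and the CBLM libraries of the same numbers. The files do not show which naming is right. The labels of the count tables were used, the exchange leaves each library in its region, and the genotype tests were repeated with the table's naming. Slc39a8 itself was low in all groups, at 2.14 ± 0.579 TPM in wild-type and 2.46 ± 0.361 in A391T cortex and at 2.75 ± 0.302 and 2.58 ± 0.189 in cerebellum (SD, n = 4 each), and an RNA level cannot check a point variant. TPM is the count per base of gene model, scaled to a total of 1000000 in every library, and was computed here from the counts with the gene lengths of the RPKM table.

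The dissections were checked against marker genes. Summed markers of cortical projection neurons were at 410 to 480 TPM in cortex, against 30.1 to 39.7 TPM in cerebellum, and those of cerebellar granule cells were at 18.2 to 33.2 and 2363 to 3216 TPM. Markers of the choroid plexus (6 genes, among them the transthyretin gene Ttr) summed to 9.13 to 50.2 TPM in cortex, but to 2400 to 8117 TPM in 6 cerebellum libraries and to only 42.0 and 43.5 TPM in the other 2 (A391T library CBLM462 and wild-type library CBLM479). In a bulk sample, fewer cells of a type and less RNA per cell cannot be told apart.

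By its mean, and with the gene lengths of the RPKM table, Sdc3 was the most abundant member in all 4 groups, and Sdc1 and Gpc2 were the least abundant in cortex. In wild-type cortex the mean levels in TPM ran from Sdc3 (151) and Gpc1 (131), through Sdc4 (79.6), Sdc2 (48.4), Gpc5 (32.8), Gpc4 (14.1), Gpc3 (7.60) and Gpc6 (5.85), to Gpc2 (1.51) and Sdc1 (1.10). Among neighbors in this order, only Sdc3 and Gpc1 had overlapping ranges, although Sdc3 was the higher of these in each of the 4 libraries. In wild-type cerebellum the order was Sdc3 (201), Sdc4 (152), Gpc1 (128), Sdc2 (46.3), Sdc1 (16.4), Gpc6 (15.9), Gpc5 (8.58), Gpc4 (6.76), Gpc3 (3.52) and Gpc2 (1.71). Here the ranges of Sdc1 and Gpc6 overlapped, as did those of Gpc5 and Gpc4. Sdc4 thus passed Gpc1 in cerebellum, and Sdc1, last in cortex, lay level with Gpc6, above which it was in 2 of 4 libraries. The places of Gpc5 and Sdc1 rest on the gene lengths. For Gpc5 the RPKM table used 4983 bases where the GENCODE M1 exons cover 2255, which would make its TPM 2.21 times higher in every library. For Gpc6 and Sdc1 the GENCODE M1 exon bases would multiply TPM by 1.08 and 0.926. With such exon bases for all 10 members, Gpc5 (72.5 TPM) stood above Sdc2 (54.2 TPM) in wild-type cortex, and in wild-type cerebellum Gpc5 (18.9 TPM) and Gpc6 (17.2 TPM) stood above Sdc1 (15.2 TPM), with overlapping ranges between Gpc5 and Gpc6 and between Gpc6 and Sdc1. In A391T cerebellum the mean of Sdc4 was then above that of Sdc3 (181 and 179 TPM). The low places of Gpc2 are uncertain too. Of its exon bases 38.8% lie also in Gal3st4, and reads on shared bases can be ambiguous and left uncounted.

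**Figure D1:**
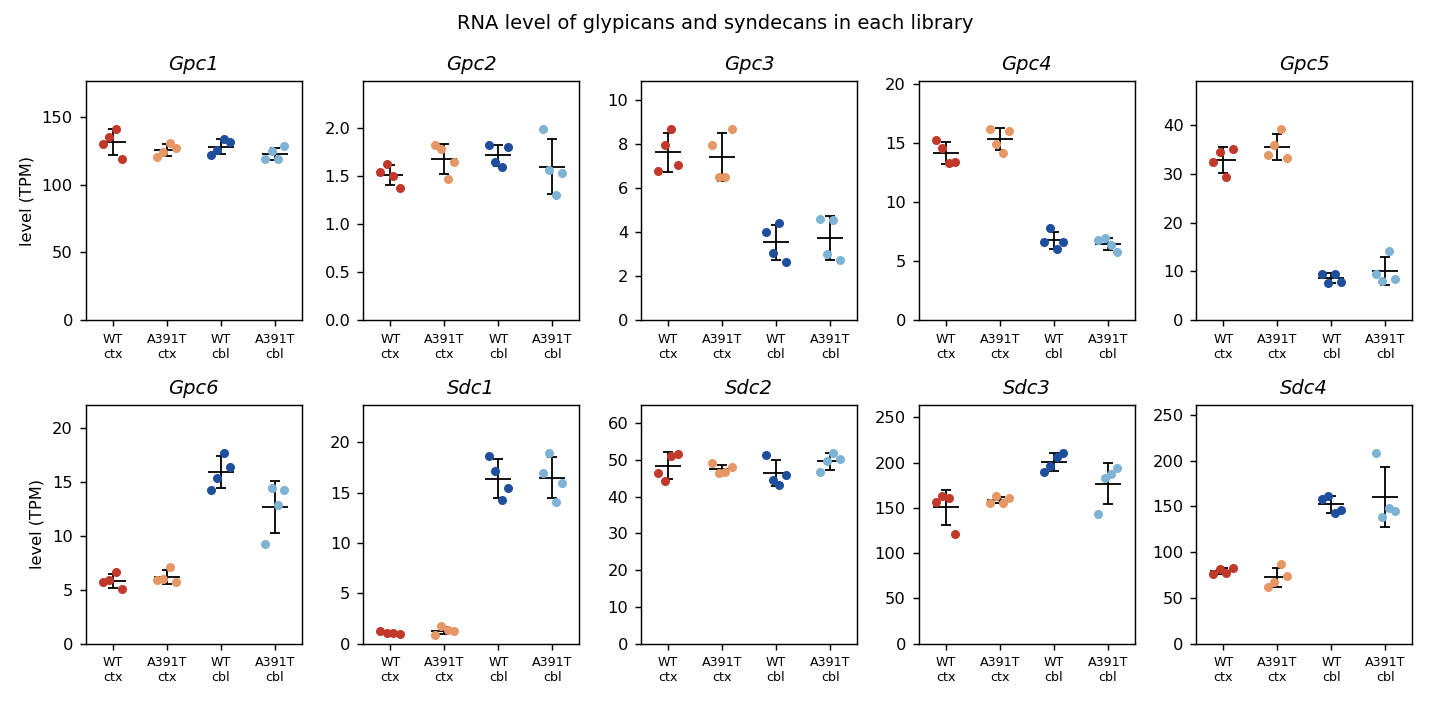
RNA level in TPM (vertical axes, linear from 0, a different scale for each gene) of the 10 core proteins in wild-type (WT) and A391T cortex (ctx) and cerebellum (cbl). Each point is 1 library, bars are the mean and SD of 4 mice. Sdc1, Sdc4 and Gpc6 were higher in every cerebellum library than in any cortex library, and Gpc3, Gpc4 and Gpc5 lower, while the genotypes overlapped throughout.

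Summed over each family, syndecan RNA was higher and glypican RNA lower in cerebellum. The 4 syndecans summed to 280 ± 15.6 TPM in wild-type cortex and 416 ± 6.01 TPM in wild-type cerebellum, and the 6 glypicans to 193 ± 9.08 and 165 ± 6.58 TPM (SD, n = 4 each). The syndecans made up 59.1 ± 0.290% of both families together in wild-type cortex and 71.6 ± 1.07% in wild-type cerebellum, with 59.4 ± 0.315% and 71.9 ± 1.00% in A391T mice. These ranges did not overlap between regions in either genotype. Gpc1, the most abundant glypican, supplied 67.9 ± 1.93% of glypican RNA in wild-type cortex and 77.8 ± 0.800% in cerebellum, although its own level was nearly the same. The share of Gpc5 was 17.0 ± 1.98% in cortex and 5.21 ± 0.629% in cerebellum, and that of Gpc6 was 3.02 ± 0.217% and 9.67 ± 0.524%. Among syndecans, the share of Sdc1 was 0.393 ± 0.0430% in wild-type cortex and 3.93 ± 0.423% in wild-type cerebellum. That of Sdc4 was 28.6 ± 2.61% and 36.6 ± 1.89%, that of Sdc3 53.7 ± 4.35% and 48.3 ± 2.68%, and that of Sdc2 17.4 ± 2.05% and 11.1 ± 0.778%. The shares depend on the length given to each gene. With the exon bases of GENCODE M1 for all 10 members, a choice made after the data were seen, the share of Gpc5 was 31.2 ± 3.02% and 10.8 ± 1.23% in wild-type cortex and cerebellum, that of Gpc1 56.2 ± 2.71% and 72.7 ± 1.22%, and that of the syndecans in both families 56.1 ± 0.603% and 71.6 ± 1.12%.

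**Figure D2:**
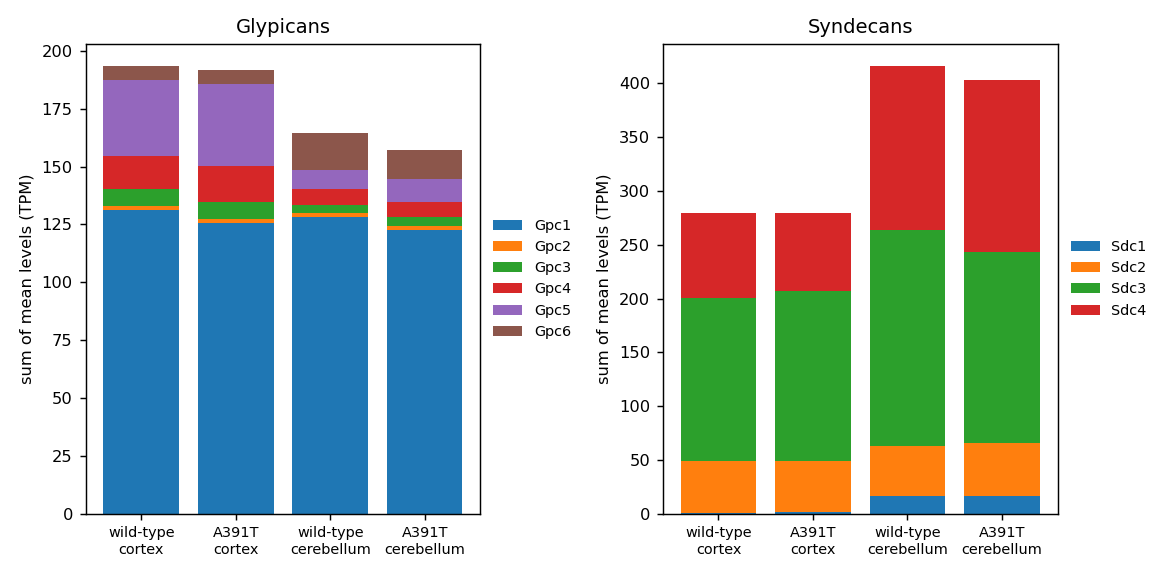
Summed mean levels (TPM, vertical axes from 0) of the 6 glypicans and the 4 syndecans in the 4 groups, with each colored segment the mean of 1 gene over 4 mice. The syndecan column is higher in cerebellum (416 against 280 TPM in wild type), and the glypican column lower (165 against 193 TPM), where the Gpc5 segment is small and the Gpc6 segment larger.

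The regional comparison asked which core proteins differed between cerebellum and cortex, in wild-type mice as in the study and then in A391T mice. A gene was called when the adjusted p of edgeR's quasi-likelihood test was under 0.05 and the difference at least 2-fold. In wild-type mice Sdc1 and Gpc6 were called higher in cerebellum and Gpc3, Gpc4 and Gpc5 higher in cortex. That is 2 and 3 of 10 members, beside 10.5% and 14.2% of the 16040 genes tested. With the adjusted p alone, 4 members were higher in cerebellum and 5 in cortex, beside 34.7% and 33.1% of all genes. With the mouse as a block 8 of these 9 passed, all but Sdc2. The median absolute log2 fold change was 1.00 over the members and 0.46 over all genes tested.

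Sdc1, a syndecan best known from epithelia and plasma cells, showed the widest difference. In cortex it was at 1.28, 1.10, 1.08 and 0.945 TPM in wild-type libraries CTX447, CTX448, CTX479 and CTX480, and in cerebellum of the same mice, CBLM447, CBLM448, CBLM479 and CBLM480, at 18.6, 17.2, 14.2 and 15.5 TPM. All cerebellum libraries were far above all cortex libraries, where Sdc1 had only 20 to 42 counts per library in both genotypes, against 315 to 478 in cerebellum. The log2 fold change (cerebellum over cortex) was 3.73 with a standard error (SE) of 0.15, or 13.3-fold (adjusted p = 1.7e-09). In the single mice of both genotypes, the ratio of the TPM levels lay between 10.5 and 18.5 (median 13.9), above 1 in 8 of 8 mice.

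Sdc4, a syndecan of focal adhesions that binds protein kinase C alpha, was at 75.9, 81.5, 77.5 and 83.3 TPM in the same order in wild-type cortex. In wild-type cerebellum it was at 159, 162, 143 and 146 TPM. The groups did not overlap, and the difference of 1.73-fold was under the 2-fold criterion (log2 fold change 0.79, SE 0.07, adjusted p = 1.4e-06). The ratio of TPM levels exceeded 1 in 8 of 8 mice.

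Sdc3 was higher in cerebellum by a smaller amount. In wild-type cortex it was at 157, 163, 161 and 121 TPM and in cerebellum at 190, 196, 206 and 211 TPM. The lowest cerebellum library was above the highest cortex library, and CTX480 was low within cortex. The log2 fold change was 0.26 (SE 0.09, adjusted p = 0.018). With single libraries left out it lay between 0.17 and 0.30. Sdc3 did not pass with only the mice whose names match in the RPKM table. Sdc2, which is known for a part in dendritic spine maturation, was at 46.4, 44.3, 51.1 and 51.7 TPM in wild-type cortex, against 51.3, 44.6, 43.3 and 45.9 TPM in cerebellum. These ranges overlapped, and its log2 fold change of -0.21 (SE 0.08, adjusted p = 0.031) moved to -0.09 (adjusted p = 0.36) when libraries were scaled by their totals, which shifts the median of all genes by 0.12 in wild-type mice and by 0.13 in A391T mice. The call of Sdc2 also ended with the mouse as a block, which follows the pairing of regions (adjusted p = 0.052), and without any one of CBLM448, CBLM479, CBLM480, CTX479 and CTX480 (adjusted p = 0.057 to 0.089).

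Among the glypicans, Gpc5 showed the widest difference. This glypican, a binder of Hedgehog proteins, was at 32.4, 34.4, 29.3 and 35.1 TPM in wild-type cortex, against 9.40, 7.57, 9.52 and 7.81 TPM in cerebellum. The 2 sets of libraries were far apart, with a log2 fold change of -2.09 (SE 0.10, adjusted p = 7.4e-09), or 4.25-fold higher in cortex. The cerebellum level was 0.220 to 0.361 of the cortex level in the single mice of both genotypes.

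Its subfamily partner Gpc3, a regulator of Hedgehog signaling and body growth, was at 6.75, 7.95, 8.67 and 7.02 TPM in wild-type cortex. In cerebellum it was at 3.99, 3.03, 4.39 and 2.65 TPM. No cerebellum library reached the cortex range, and Gpc3 was 2.39-fold higher in cortex (log2 fold change -1.26, SE 0.16, adjusted p = 4e-05).

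The astrocyte-derived glypicans Gpc4 and Gpc6 moved in opposite directions. Gpc4 was at 15.3, 14.6, 13.3 and 13.4 TPM in wild-type cortex, against 6.60, 7.79, 6.06 and 6.59 TPM in cerebellum, 2.32-fold higher in cortex (log2 fold change -1.22, SE 0.11, adjusted p = 2.3e-06). Gpc6 was at 5.70, 5.93, 6.68 and 5.10 TPM in wild-type cortex, against 14.2, 15.4, 17.7 and 16.4 TPM in cerebellum, 2.45-fold higher in cerebellum (log2 fold change 1.29, SE 0.09, adjusted p = 1.5e-07). Neither gene had overlapping groups. In TPM, Gpc4 was the more abundant of the pair in every cortex library, and Gpc6 was the more abundant in every cerebellum library. The cortex order rests on gene length. By counts alone, Gpc6 was above Gpc4 in every cortex library as well (312 to 485 and 213 to 341 counts over both genotypes).

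The remaining glypicans differed little by region. Gpc1 was at 130, 135, 141 and 119 TPM in wild-type cortex, against 122, 126, 133 and 132 TPM in cerebellum. These ranges overlapped, and the log2 fold change of -0.19 (SE 0.06, adjusted p = 0.014) became -0.07 (adjusted p = 0.27) with scaling by library totals and -0.16 (adjusted p = 0.052) without CBLM447. Gpc2, which is known from growing axons of developing neurons, was at 1.54, 1.62, 1.49 and 1.37 TPM in wild-type cortex, against 1.82, 1.64, 1.59 and 1.80 TPM in cerebellum. Its log2 fold change of 0.03 (95% interval -0.23 to 0.29, adjusted p = 0.86) did not pass the test. Gpc2 is uncertain, since 38.8% of its exon bases lie also in Gal3st4 on the same strand and 10.6% in 6330418K02Rik on the other strand, and the counting did not use strand.

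**Figure D3:**
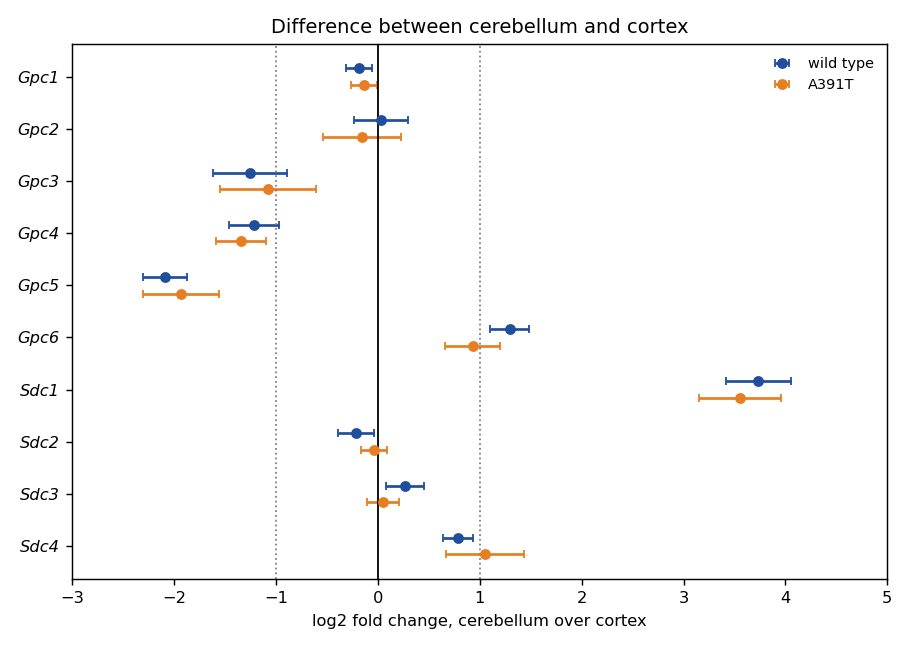
Log2 fold change of each core protein, cerebellum over cortex (horizontal axis), in wild-type and in A391T mice, from edgeR fits of 4 libraries per group; points are estimates, bars 95% intervals, and dotted lines mark 2-fold. Sdc1, at 3.73 and 3.55, is farthest to the right and Gpc5, at -2.09 and -1.93, farthest to the left.

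In A391T mice 5 members were called as well. Sdc1 and Sdc4 were called higher in cerebellum, beside 9.8% of the 16005 genes tested, and Gpc3, Gpc4 and Gpc5 higher in cortex, beside 14.9%. By the adjusted p alone these 5 and Gpc6 passed, 3 in each direction, beside 31.6% and 31.3% of all genes. Sdc1 was at 0.911, 1.74, 1.35 and 1.23 TPM in A391T libraries CTX445, CTX446, CTX461 and CTX462, and at 16.9, 19.0, 14.1 and 15.9 TPM in CBLM445, CBLM446, CBLM461 and CBLM462. It again had no overlap between regions (log2 fold change 3.55, SE 0.18, 11.7-fold, adjusted p = 8.5e-08).

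Sdc4 in A391T mice was at 61.8, 67.9, 86.8 and 73.9 TPM in cortex, against 209, 139, 148 and 145 TPM in cerebellum. CBLM445 stood well above the other 3. The log2 fold change was 1.05 (SE 0.17, adjusted p = 0.00037), and it fell to 0.85 without that library and to 0.98 without CTX445, in both cases under 2-fold. Gpc6 in A391T mice was at 5.87, 5.99, 7.12 and 5.72 TPM in cortex, against 9.21, 14.5, 12.9 and 14.2 TPM in cerebellum. Here CBLM445 was the lowest of its group. The log2 fold change of 0.93 (SE 0.12, adjusted p = 8.3e-05) was just under 2-fold, and at 1.04 it was over it without this library.

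The cortex-enriched glypicans kept their direction in A391T mice. Gpc5 was at 33.8, 35.8, 39.2 and 33.1 TPM in cortex, against 9.38, 7.96, 14.2 and 8.42 TPM in cerebellum (log2 fold change -1.93, SE 0.17, adjusted p = 3.9e-06). Gpc4 was at 16.2, 14.9, 14.2 and 16.0 TPM in cortex, against 6.75, 6.97, 6.34 and 5.76 TPM in cerebellum (log2 fold change -1.35, SE 0.11, adjusted p = 2.6e-06). Neither gene overlapped between regions. Gpc3 was at 7.93, 6.49, 6.51 and 8.65 TPM in cortex, against 4.60, 3.01, 4.53 and 2.72 TPM in cerebellum (log2 fold change -1.08, SE 0.21, adjusted p = 0.0013). It too had no overlap, but its estimate lay close to 2-fold and fell just under it without CBLM446, CBLM462 or CTX462.

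Gpc1, Gpc2, Sdc2 and Sdc3 did not pass the test in A391T mice, with log2 fold changes of -0.13 (adjusted p = 0.064), -0.16 (adjusted p = 0.44), -0.04 (adjusted p = 0.57) and 0.05 (adjusted p = 0.57). Their ranges overlapped between regions. Sdc3 in A391T cerebellum was at 143, 183, 187 and 194 TPM, with CBLM445 the lowest and below all 4 A391T cortex libraries, which lay between 155 and 163 TPM. Without that cerebellum library Sdc3 passed at a log2 fold change of 0.11 (adjusted p = 0.037), Gpc1 at -0.15 (adjusted p = 0.010) and Gpc2 at -0.33 (adjusted p = 0.045).

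CBLM445 also differed in its markers. Its granule cell markers summed to 2363 TPM, the lowest of the 8 cerebellum libraries, and its 6 astrocyte markers to 1462 TPM, also the lowest, where the others lay between 1636 and 1874 TPM. Of the 2 Bergmann glia markers, Hopx was at 282 TPM in it, the highest of the 8, and Gdf10 at 132 TPM, the lowest. Its reads stood apart as well, with 10.2% on no gene (11.8% to 13.2% in the other 7 cerebellum libraries), 2.75% ambiguous (2.41% to 2.51%) and 8.41% not unique (9.08% to 10.0%). The part of these measures in its Sdc4, Sdc3 and Gpc6 levels was not tested.

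CTX461 stood apart among the cortex libraries. Its 6 striatum markers summed to 265 TPM, where the other 7 cortex libraries lay between 594 and 907 TPM and the cerebellum libraries between 250 and 311 TPM. It was the highest cortex library in astrocyte markers (1742 TPM, with 1438 to 1586 TPM in the other 7), oligodendrocyte markers (4467 TPM, with 3794 to 4125 TPM) and Bergmann glia markers (55.3 TPM, with 36.6 to 48.5 TPM). It also had the highest cortex level of Sdc4, Gpc5 and Gpc6 (86.8, 39.2 and 7.12 TPM). Without it, the regional log2 fold change in A391T mice was 1.14 for Sdc4 (adjusted p = 0.0008), -1.89 for Gpc5 (adjusted p = 2.9e-05) and 0.99 for Gpc6 (adjusted p = 0.00019), and 5 members were again called. The part of striatal or glial RNA in these levels was not tested.

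Choroid plexus markers differed widely among the cerebellum libraries. In the 2 cerebellum libraries with marker sums of 42.0 and 43.5 TPM, Sdc1 was at 15.9 and 14.2 TPM, Sdc4 at 145 and 143 TPM, and Gpc6 at 14.2 and 17.7 TPM, against cortex ranges of 0.911 to 1.74, 61.8 to 86.8 and 5.10 to 7.12 TPM. Set against the 4 cortex libraries of the same genotype, these single cerebellum libraries gave log2 fold changes in wild-type and A391T mice of 3.53 and 3.47 for Sdc1, 0.70 and 0.86 for Sdc4, and 1.45 and 1.07 for Gpc6. Gpc3 was then at -0.94 in wild-type mice, under 2-fold, and -1.58 in A391T mice. With 1 cerebellum library per genotype, picked by its marker sum after the data were seen, these values carry no test. The part of choroid plexus RNA in the regional differences was not tested.

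**Figure D4:**
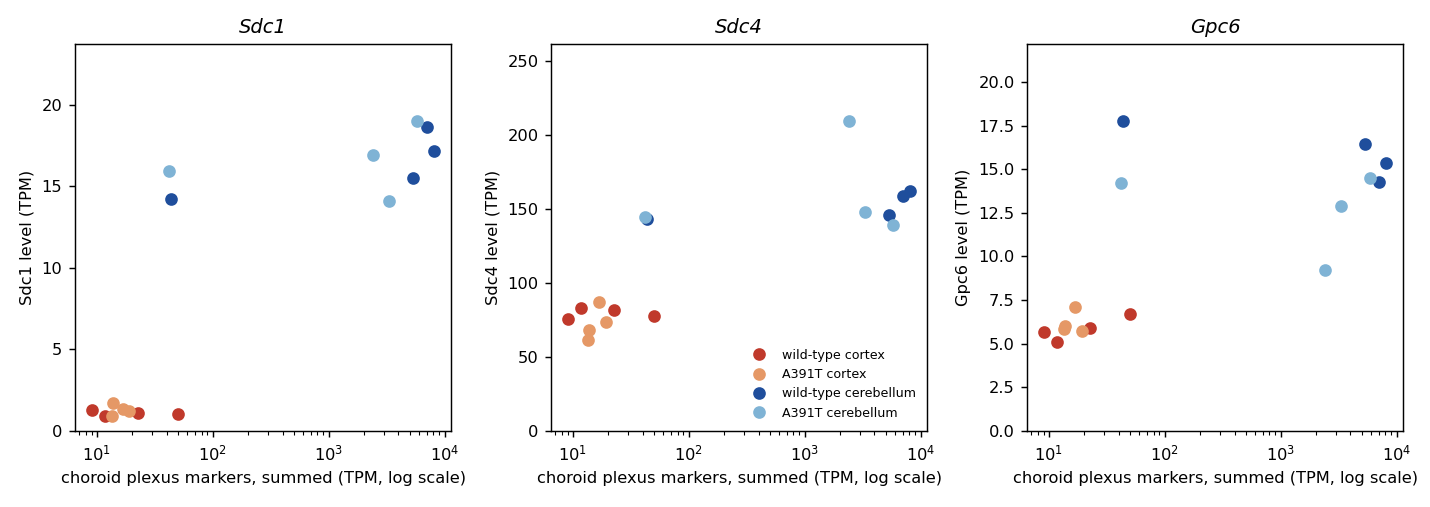
Level of Sdc1, Sdc4 and Gpc6 in each of the 16 libraries (TPM, vertical axes from 0) against the summed choroid plexus markers (TPM, logarithmic horizontal axes). The 2 cerebellum libraries at 42.0 and 43.5 TPM on the horizontal axis lie within or near the level of the other cerebellum libraries and above every cortex library.

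Other cell type markers moved with region as well. All 5 Purkinje cell markers were called higher in cerebellum in both genotypes, with sums of 307 to 465 TPM in cortex, against 4421 to 5088 TPM in cerebellum. Both Bergmann glia markers (Gdf10 and Hopx) were called higher in wild-type cerebellum, with sums of 36.6 to 55.3 TPM in cortex, against 315 to 414 TPM in cerebellum over both genotypes. All 4 markers of oligodendrocyte precursors passed the adjusted p toward cortex in wild-type mice (2 of them called, Pdgfra and Gpr17), with sums of 96.0 to 116 TPM in cortex, against 43.6 to 66.5 TPM in cerebellum. All 6 microglia markers were called higher in cortex in both genotypes (413 to 495 against 126 to 169 TPM). The 5 meningeal fibroblast markers all passed toward cerebellum in wild-type mice (1 called), and 4 of them did in A391T mice (2 called). Their sums over both genotypes were 48.6 to 68.9 TPM in cortex, against 123 to 143 TPM in cerebellum. Astrocyte markers were mixed, with Aqp4 and Slc1a3 called higher in cerebellum and Slc1a2 higher in cortex. No marker of these 6 lists was at 0 in any library. Their part in the regional differences of the core proteins was not tested.

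Of the 10 genes, 2 pairs lie next to each other in the genome. Gpc4 (chrX:49406198-49518429, minus strand, NCBIM37) and Gpc3 (chrX:49625603-49967127, minus strand) are 107173 bases apart and were both higher in cortex. Gpc5 (chr14:115491437-116923659, plus strand) and Gpc6 (chr14:117324519-118378751, plus strand) are 400859 bases apart and moved in opposite directions. The other members stand alone, Gpc1 at chr1:94728222-94756775, Gpc2 at chr5:138706180-138721233, Sdc1 at chr12:8778129-8800521, Sdc2 at chr15:32850478-32964485, Sdc3 at chr4:130348452-130382234 and Sdc4 at chr2:164249747-164269387.

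Promoter sequence was at hand for 7 of the 10 members (not for Gpc1, Gpc6 and Sdc2), from RefSeq on GRCm38.p6, a later build than that of the counts. The 250 bases before the annotated start are printed for the syndecans Sdc1 and Sdc4, higher in cerebellum, and the glypicans Gpc4 and Gpc5, higher in cortex, to set the regions side by side. Capitals mark the GC box GGGCGG on either strand (CCGCCC on the other) and, in the last 50 bases, TATAA.
Sdc1 (chr12:8771146-8771395, plus strand): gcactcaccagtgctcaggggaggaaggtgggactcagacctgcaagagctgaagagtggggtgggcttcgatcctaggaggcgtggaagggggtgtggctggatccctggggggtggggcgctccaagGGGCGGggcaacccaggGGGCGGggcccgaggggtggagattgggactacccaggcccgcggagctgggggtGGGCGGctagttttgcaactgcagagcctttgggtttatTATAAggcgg
Sdc4 (chr2:164443189-164443438, minus strand): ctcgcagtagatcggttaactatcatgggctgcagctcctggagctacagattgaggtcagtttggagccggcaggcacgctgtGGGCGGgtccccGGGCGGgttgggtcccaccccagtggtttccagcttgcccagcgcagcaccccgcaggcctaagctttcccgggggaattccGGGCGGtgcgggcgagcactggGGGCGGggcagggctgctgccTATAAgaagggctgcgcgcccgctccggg
Gpc4 (chrX:52164924-52165173, minus strand): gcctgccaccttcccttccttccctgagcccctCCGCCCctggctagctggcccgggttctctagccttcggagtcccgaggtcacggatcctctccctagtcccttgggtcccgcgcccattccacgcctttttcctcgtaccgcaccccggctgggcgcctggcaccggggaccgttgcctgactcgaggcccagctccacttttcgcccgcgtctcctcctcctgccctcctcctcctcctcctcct
Gpc5 (chr14:115091965-115092214, plus strand): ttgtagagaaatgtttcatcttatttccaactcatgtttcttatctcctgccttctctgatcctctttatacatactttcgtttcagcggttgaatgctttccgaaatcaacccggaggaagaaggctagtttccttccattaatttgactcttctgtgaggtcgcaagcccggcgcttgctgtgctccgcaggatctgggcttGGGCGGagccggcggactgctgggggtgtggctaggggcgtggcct
Sdc1 and Sdc4 were the only ones of the 7 with TATAA in the last 50 bases, 10 and 29 bases before the start, where 4.93% of 32851 promoters hold it. Sdc4 had 4 GC boxes, Sdc1, Sdc3, Gpc2 and Gpc3 had 3 each, and Gpc4 and Gpc5 had 1 each. Of all promoters, 32.7% hold at least 1 GC box, 8.47% at least 3 and 4.09% at least 4. Thus members higher in cerebellum (Sdc1, Sdc4) and one higher in cortex (Gpc3) all held 3 or more. A match describes these letters only and is no evidence of binding.

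The genes around the core proteins were followed in 6 lists by role, in the same wild-type comparison, where 10.5% of all genes tested were called higher in cerebellum and 14.2% in cortex. Of 12 enzymes that build the linker and the heparan sulfate chain, 1 was called higher in cerebellum and 2 in cortex. Pxylp1, a phosphatase acting on the linker xylose, was 3.63-fold higher in cerebellum (9.08 ± 0.386 TPM in cortex, 36.6 ± 1.70 in cerebellum, adjusted p = 8.2e-10). Extl1, a glycosyltransferase of the exostosin family, was 6.48-fold higher in cortex (85.4 ± 10.3 and 14.6 ± 2.45 TPM, adjusted p = 6.6e-09). Xylt1, which starts the linker on the core protein, was 2.05-fold higher in cortex (adjusted p = 0.0078).

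Of 11 other heparan sulfate core proteins, 2 were called higher in cerebellum and 1 in cortex. Col18a1, the collagen that yields endostatin, was at 2.56 ± 0.382 TPM in cortex, against 59.1 ± 2.14 TPM in cerebellum, 20.8-fold higher (adjusted p = 1.6e-11), the one core protein of that list with a wider regional difference than Sdc1. Tgfbr3, the betaglycan, was 2.40-fold higher in cerebellum (adjusted p = 6.5e-08), and Agrn, the organizer of neuromuscular synapses, 2.08-fold higher in cortex (adjusted p = 9.9e-07). Of 13 genes that cleave or release core proteins or their chains, 1 was called higher in cerebellum and 2 in cortex. These were the proprotein convertase Pcsk6 (6.06-fold higher in cerebellum, adjusted p = 1.2e-10), its relative Pcsk5 (4.35-fold higher in cortex, adjusted p = 8.7e-08) and the heparanase Hpse (9.09-fold higher in cortex, adjusted p = 1.6e-06), which was low in both regions, with 1.64 to 2.02 and 0.0845 to 0.316 TPM over the 4 libraries each.

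Among 12 cytoplasmic partners of syndecans, 1 was called higher in cerebellum and 3 in cortex. The Rac activator Tiam1 was 4.06-fold higher in cerebellum (30.3 ± 6.25 and 137 ± 17.4 TPM, adjusted p = 1.6e-07). Prkca, the protein kinase C alpha that binds Sdc4, was 2.82-fold higher in cortex (79.8 ± 14.8 and 31.4 ± 4.83 TPM, adjusted p = 1.4e-06), opposite to Sdc4 itself, and the syntenin Sdcbp2 was 2.30-fold higher in cortex (adjusted p = 0.00042). Among 13 ligands that bind heparan sulfate, 3 were called higher in cerebellum and 4 in cortex. The growth factors Mdk (3.07-fold, adjusted p = 5e-08) and Fgf1 (2.94-fold, adjusted p = 6.2e-09) were higher in cerebellum. Hgf (34.4-fold, adjusted p = 5.3e-08) and the guidance cue Slit1 (26.7-fold, adjusted p = 2.6e-07) were higher in cortex, where Slit1 was at 39.4 ± 10.4 TPM against 1.64 ± 1.15 TPM in cerebellum. Hgf had as few as 1 count in a cerebellum library, so that its ratio rests on few reads.

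Among 13 surface partners and receptors, 1 was called higher in cerebellum and 4 in cortex. Lrrtm4, a postsynaptic protein that binds Gpc4, was 6.70-fold higher in cortex (9.46 ± 1.11 and 1.57 ± 0.378 TPM, adjusted p = 5.9e-08), the same direction as Gpc4. Alk, a receptor for Mdk and pleiotrophin, was 6.45-fold higher in cortex (adjusted p = 2.1e-06), and Fgfr1 was 2.96-fold higher in cerebellum (adjusted p = 3.2e-09). In A391T mice the numbers called higher in cerebellum and in cortex were 1 and 2 for the chain enzymes, 3 and 1 for the other core proteins, 2 and 2 for cleavage and release, 1 and 2 for the cytoplasmic partners, 4 and 4 for the ligands (12 tested) and 1 and 4 for the surface partners, beside 9.8% and 14.9% of all genes.

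The genotype comparisons asked whether core proteins differed between A391T and wild-type mice within a region. With edgeR no member passed the adjusted p in cortex, where 0.0126% of 15815 genes did, in cerebellum, where 0% of 15668 did, or in the test of whether the regional difference depended on genotype, where 0% of 16589 did. DESeq2 also called no member in any of these, with 14, 30 and 1 genes past its adjusted p. At an unadjusted p under 0.05 the edgeR fits held 748, 1340 and 805 genes, and no member in cortex and 1 member, Gpc6, in each of the others. With the labels' names, all 10 members had overlapping genotype groups in both regions. The share of all genes with overlapping groups was not counted.

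In cortex the log2 fold changes of A391T over wild type lay between -0.15 (Sdc4, 95% interval -0.36 to 0.05) and 0.22 (Sdc1, -0.25 to 0.69), all with an adjusted p of 1. In cerebellum they lay between -0.28 (Gpc6, -0.54 to -0.02, adjusted p = 0.53) and 0.27 (Gpc5, -0.13 to 0.68, adjusted p = 0.55). The intervals were widest for Gpc3 in cerebellum (-0.40 to 0.69) and for Sdc1 in cortex, and all 20 excluded a 2-fold difference. With libraries named as in the RPKM table, no member passed either. The values then lay between -0.17 (Sdc4) and 0.16 (Gpc2) in cortex and between -0.15 (Gpc5) and 0.32 (Sdc1, adjusted p = 0.55) in cerebellum, with Gpc6 in cerebellum at -0.15 (adjusted p = 0.65), and all 20 intervals again excluded a 2-fold difference. Under those names Gpc4 and Sdc1 in cerebellum were higher in every A391T library than in any wild-type library. Their 95% intervals lay above 0 (0.002 to 0.49 for Gpc4 and 0.15 to 0.50 for Sdc1), but the adjusted p was 0.55 for both. The groups overlapped in the other 18 cases. How many of all genes separate in this way was not counted, so these counts are no result about the members. The change of the regional difference with genotype was at most -0.35 for Gpc6 (-0.67 to -0.03, adjusted p = 0.77). With the table's naming this change lay between -0.20 (Sdc3) and 0.44 (Sdc4, 0.07 to 0.80, adjusted p = 0.5).

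**Figure D5:**
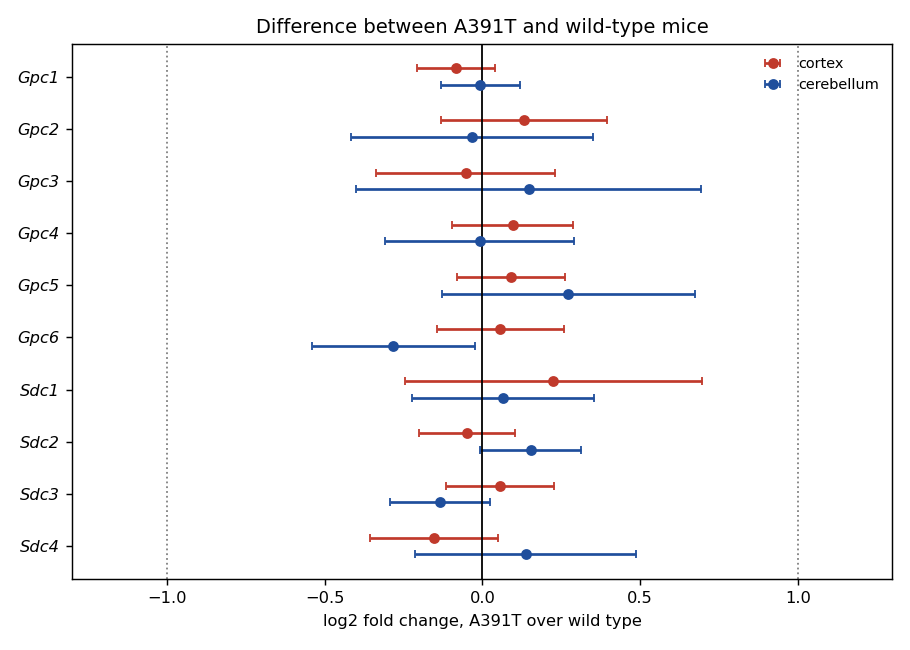
Log2 fold change of each core protein, A391T over wild type (horizontal axis), in cortex and in cerebellum, from edgeR fits of 4 libraries per group; points are estimates, bars 95% intervals, and dotted lines mark 2-fold. All estimates lie between -0.28 and 0.27, and all intervals stay inside the 2-fold lines.

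Across the 16 libraries, the genes with the most similar pattern of log2 CPM (counts scaled to the library total) were Zfp219 (Pearson r = 0.997) and Paqr6 (0.996) for Sdc1, Edem2 and Itgb5 (0.981 each) for Sdc4, and Bcl9l (0.971) for Sdc3. For the glypicans they were Stxbp6 (0.995) for Gpc5, Grik5 (0.989) for Gpc4, Tmem130 (0.982) for Gpc3 and 1110021J02Rik (0.991) for Gpc6. Gpc1 and Sdc2 had weaker nearest genes, Smad3 (0.915) and Lbh (0.897), as had Gpc2 with Dnajc28 (0.857). These 16 points are 2 regions of 8 mice and share that split, so the values describe likeness of pattern only.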

How the data were processed

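Counts were deposited by the authors as 1 file per library, holding whole reads per Ensembl gene. Per the labels and the study's methods, polyA-selected directional libraries were read as 50-base reads and processed with STAR, HTSeq and edgeR on mm9. The file names call the counting not stranded. A table of RPKM values was also deposited by the authors, who normalized it. It served for gene names, lengths and the check of library names. Reads on no gene (10.2% to 13.2%), ambiguous (2.20% to 2.75%) and not unique (8.41% to 12.1%, all as percent of the reads in each file) stayed out of library sizes and tests.

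Counts of each comparison's libraries were filtered with filterByExpr, TMM-scaled and tested gene by gene with the two-sided quasi-likelihood test of edgeR 4.0.16 (R 4.3.3), and p-values were adjusted by Benjamini-Hochberg across every gene that passed the filter. The threshold was 0.05, with a 2-fold criterion for calls as in the study. Regions were compared within each genotype and genotypes within each region (4 against 4 libraries), and the interaction used all 16. TPM was counts divided by the lengths of the RPKM table. Log2 CPM was TMM-scaled and used a prior count of 2. Pairs of libraries of a group differed by more than sampling noise (chi-square per degree of freedom 3.08 to 74.5), so none was merged. The scripts were tested on simulated data. Alternatives were DESeq2 1.42.0, other scalings and filters, a test against 2-fold, the mouse as a block, the library names of the RPKM table, only the mice whose names match, and each library left out.

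The mouse numbers were taken to pair the regions. The study's methods state for 4 male mice that both regions came from the same brains, and the shared numbers of the A391T libraries were read likewise. The deviations of the cortex and cerebellum libraries of a mouse from their group means correlated at -0.10 to 0.12 (8 mice, median -0.05). Libraries of different mice of a genotype gave -0.17 to 0.15 (24 pairs, median 0.01). These values do not show the pairing, which rests on the methods and the shared numbers. The fit without a block was the main one, and the study's methods name no block.

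The members and gene lists were chosen with earlier results of these data known. Named were all members, Slc39a8, for each role list up to 2 genes of largest fold change per direction among those called in wild-type mice, the nearest genes by correlation, and markers at 0 or standing out. The marker genes named besides were chosen after their values were seen.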

Additional observations from a re-analysis of the deposited data

Results flagged for a closer look

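In groups of 4 libraries, a library was singled out when its gap to the nearest other library as a share of the group's whole range exceeded Dixon's 95% critical value, which chance gives in about 1 in 20 groups. Of 40 groups (10 genes in 4 groups), 2 held such a library. Sdc3 in wild-type cortex was at 121.4 TPM in CTX480, a gap of 0.849 of the range, where the other 3 libraries were at 157 to 163 TPM. The same library had the highest endothelial marker sum of its group (467 TPM, with the group's mean at 364 TPM), the fewest counts on genes of all 16 libraries (20813432) and the highest share of reads that were not unique (12.1%, with 9.90% to 10.6% in the other 7 cortex libraries). Sdc4 in A391T cerebellum was at 209 TPM in CBLM445, a gap of 0.871 of the range, where the other 3 libraries were at 139 to 148 TPM. That library also had the lowest granule cell marker sum of all cerebellum libraries (2363 TPM) and the lowest shares of reads on no gene (10.2%) and not unique (8.41%). Whether these measures play a part in either value was not tested.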

How the results depend on the processing

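In wild-type mice 5 members were called in the fit reported, and 5 and 9 were called and past the adjusted p with libraries named as in the RPKM table. A test against 2-fold itself called 3 members in wild-type mice (Gpc5, Gpc6 and Sdc1, with Gpc3 at adjusted p = 0.11 and Gpc4 at 0.059) and 3 in A391T mice (Gpc4, Gpc5 and Sdc1). By its construction this test is stricter. Leaving out each library in turn gave 5 to 5 called and 8 to 9 past the adjusted p in wild-type mice, and 4 to 5 called and 6 to 9 past it in A391T mice. Both genotype comparisons and the interaction stayed at 0 to 0. With the mouse as a block, which follows the pairing of regions, 5 members were called in each genotype, and 8 (wild type) and 6 (A391T) passed the adjusted p. The block ended 1 call by the adjusted p, that of Sdc2 in wild-type mice (-0.21, adjusted p = 0.052), and left the interaction at 0. The shares of all genes called in these other fits are not given here, and those of the fit reported do not carry over. Their counts therefore show only how far the calls of the members held.

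Of the small differences in wild-type mice, Sdc2 lost its call also without CBLM448, CBLM479, CBLM480, CTX479 or CTX480 (adjusted p = 0.057 to 0.089). With only the 4 mice whose names match, Gpc1 was at -0.14 (adjusted p = 0.34) and Sdc3 at 0.40 (adjusted p = 0.070) in wild-type mice and Gpc3 at -0.96 (adjusted p = 0.052) in A391T mice. Gpc6 in A391T mice was past 2-fold with the table's names (1.07) and with library totals (1.06), and Gpc3 was under it with library totals (-0.95). No called value changed sign in any fit. Values that did not pass changed sign in 4 of 200 fits of members by region in wild-type and 2 of 200 in A391T mice, in 9 and 16 of 170 by genotype in cortex and cerebellum, and in 11 of 260 for the interaction. Sdc1 in cortex rests on 20 to 42 counts per library, and its genotype interval there was the widest in that region. Without gene length (CPM), Gpc6 ranked above Gpc4 and Gpc3 in cortex.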
